A study of Mus musculus with 17 samples.

Results

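The spots described here are 120 Visium spots of mouse brain that carried a count of Tcf7l2 and of Slc17a6, no count of C1ql2, at least 1000 counts in all, and the highest levels of Prkcd, Ramp3 and Tnnt1. In each of 3 tissue sections, the spots that passed the count and gene filter were ranked by the mean log1p count per 10000 of Prkcd, Ramp3 and Tnnt1, and the first 40 were taken as members. The filter passed 767 of the 7827 spots of the series, of which 273 lay in posterior section 2, 199 in anterior section 5 and 295 in posterior section 6. The other 647 passing spots were the comparison. These values chose the members, so the levels of the 6 genes of the rule are given as a description.

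The samples were wild-type B6 mouse brain. Cells of the anterior thalamic nuclei were profiled by single-cell RNA sequencing in 14 samples, and tissue by Visium, which counts the transcripts captured on barcoded spots under a tissue section. The 3 sections came from flash-frozen brains, were cut at 10 µm and permeabilized for 24 min, and were labelled as 2 posterior sections and 1 anterior section. No treatment separated them, and age and sex are not given in the sources used here. Nothing in the labels says that the sections came from separate animals, so p-values measure only the spread between these sections, which may be technical. A spot is a small region that can hold several cells of different types, and a lower level in it cannot be told apart as fewer cells of a type or less RNA per cell.

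Member spots held a median of 9084.5 counts in posterior section 2, 4477 in anterior section 5 and 6357 in posterior section 6, for summed totals of 397046, 181031 and 257042 counts. The other passing spots had medians of 9417, 5096 and 6803 counts, so depth differed more between sections than between the groups within a section. The sections shared barcodes, as Visium slides do, with 4182 distinct barcodes over all spots, but no member barcode occurred in more than 1 section.

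Glutamatergic thalamic neurons relay signals to the cortex and switch between tonic firing and bursts carried by T-type calcium channels. They release glutamate with the vesicular transporter encoded by Slc17a6 and keep the transcription factor Tcf7l2 into adulthood. Prkcd encodes protein kinase C delta and is a common marker of thalamic relay nuclei, Ramp3 encodes a receptor activity-modifying protein that partners calcitonin-family receptors, and Tnnt1 encodes the slow skeletal troponin T. C1ql2, a secreted C1q-like protein, is known from the anterodorsal nucleus.

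The promoters of the 3 marker genes are shown because these genes chose the spots together. Each line gives the 250 bases before a RefSeq transcript start of the gene, read 5′ to 3′ on the gene's strand (build GRCm38.p6). The range of the Prkcd gene reached chr14:30626414 and that of Ramp3 began at chr11:6658506. Most of the Prkcd window and the end of the Ramp3 window therefore lay within the gene. Capitals mark the letters of 3 motifs found on either strand: CTTTGA, bound by the TCF/LEF family to which Tcf7l2 belongs, AGGTCA, bound by receptors such as ROR alpha, and the TATA box TATAAA.
Prkcd, chr14:30626209-30626458, minus strand: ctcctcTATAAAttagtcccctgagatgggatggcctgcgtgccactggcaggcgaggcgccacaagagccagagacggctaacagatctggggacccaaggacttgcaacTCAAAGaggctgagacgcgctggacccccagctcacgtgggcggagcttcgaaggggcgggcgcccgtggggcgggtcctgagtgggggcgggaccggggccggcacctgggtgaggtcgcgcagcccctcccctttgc
Ramp3, chr11:6658283-6658532, plus strand: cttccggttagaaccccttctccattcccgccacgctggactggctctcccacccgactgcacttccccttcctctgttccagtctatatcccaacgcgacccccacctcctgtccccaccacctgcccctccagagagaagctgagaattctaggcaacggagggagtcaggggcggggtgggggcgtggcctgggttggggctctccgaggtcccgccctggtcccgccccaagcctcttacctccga
Tnnt1, chr7:4515976-4516225, minus strand: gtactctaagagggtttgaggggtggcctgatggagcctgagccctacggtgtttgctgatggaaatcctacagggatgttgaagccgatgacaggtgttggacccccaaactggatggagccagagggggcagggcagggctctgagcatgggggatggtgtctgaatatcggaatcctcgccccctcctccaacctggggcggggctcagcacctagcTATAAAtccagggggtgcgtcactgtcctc
The Tnnt1 window held a TATAAA that began 30 bases before the start used. The Prkcd window held a TATAAA that began 244 bases before the start used, outside the gene's range. It also held a CTTTGA on the reverse strand, within that range. The Ramp3 window held none of the 3 motifs. Of 32851 promoter windows of the same length, 4544 held CTTTGA (13.8%), 4607 held AGGTCA and 4063 held TATAAA (12.4%). The window of a second Prkcd start in RefSeq, chr14:30610311-30610560, held none of the 3 motifs. A match describes these letters only.

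Prkcd reached 305 CPM (counts scaled to 1 common library total) in the members of posterior section 2, 309 in anterior section 5 and 782 in posterior section 6, against 22.5, 30.6 and 115 CPM in the other spots. The third section stood apart for this kinase, in the members and in the other spots alike. Ramp3 stood at 277, 215 and 420.2 CPM in members against 40.6, 36.4 and 70.3. Tnnt1 was nearly level across sections, at 279.6, 287 and 233 CPM in members against 35.0, 37.6 and 36.2. Members also had more Tcf7l2, at 685, 895 and 825 CPM against 395, 594 and 511, and more Slc17a6, at 615, 574 and 556 CPM against 315, 444 and 402. Both filter genes were thus higher in members than in the other spots. They did not fall steadily with the marker score, as Tcf7l2 stood at 764 CPM in ranks 41 to 80 of posterior section 2. Against other spots with at least 2 counts of both genes, the log2 differences were 0.062 for Tcf7l2 and 0.011 for Slc17a6. Only the other spots had to meet this limit, so the size of these differences was shaped by it.

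Of the 120 members, 97 held a count of Prkcd, 104 of Ramp3 and 95 of Tnnt1. All 3 markers were found in 57 members, 2 of them in 62 and a single one in 1, while 7 of the other 647 spots held all 3 and 302 held none. The lowest member scored 0.729 in posterior section 2, where the next spot scored 0.715. The same pair was 0.734 and 0.686 in anterior section 5 and 1.23 and 1.22 in posterior section 6. The cut therefore fell within a continuous range of scores, and it fell higher in posterior section 6. When every spot was thinned to 1000 counts before the choice, 19, 28 and 22 of the 40 members of posterior section 2, anterior section 5 and posterior section 6 were chosen again.

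To read each marker where it had not been used, 40 spots per section were chosen by the other markers alone. Tnnt1 then stood at 182, 165 and 119 CPM in the chosen spots of posterior section 2, anterior section 5 and posterior section 6, against 51.5, 62.8 and 52.3 in the rest. The groups did not overlap, and the log2 difference was 1.55 ± 0.18 (SE, edgeR's quasi-likelihood test, adjusted p = 2.58e-05). Ramp3 stood at 187, 149.8 and 280.2 CPM against 56.7, 51.3 and 90.5 (log2 difference 1.67 ± 0.17, adjusted p = 3.94e-21). Prkcd stood at 270.2, 197 and 531 CPM against 29.3, 54.2 and 150.2 (log2 difference 2.26 ± 0.16, adjusted p = 3.25e-16). Across all genes, 2.00%, 3.32% and 3.37% of those tested were higher in the spots chosen without Tnnt1, Ramp3 and Prkcd. The smallness of a p depends on how much spread the fit borrowed across genes, which was worth 17.3 and 51.2 degrees of freedom for Tnnt1 and Prkcd and was unlimited for Ramp3, so the order of these p-values is not an order of effects.

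**Figure D1:**
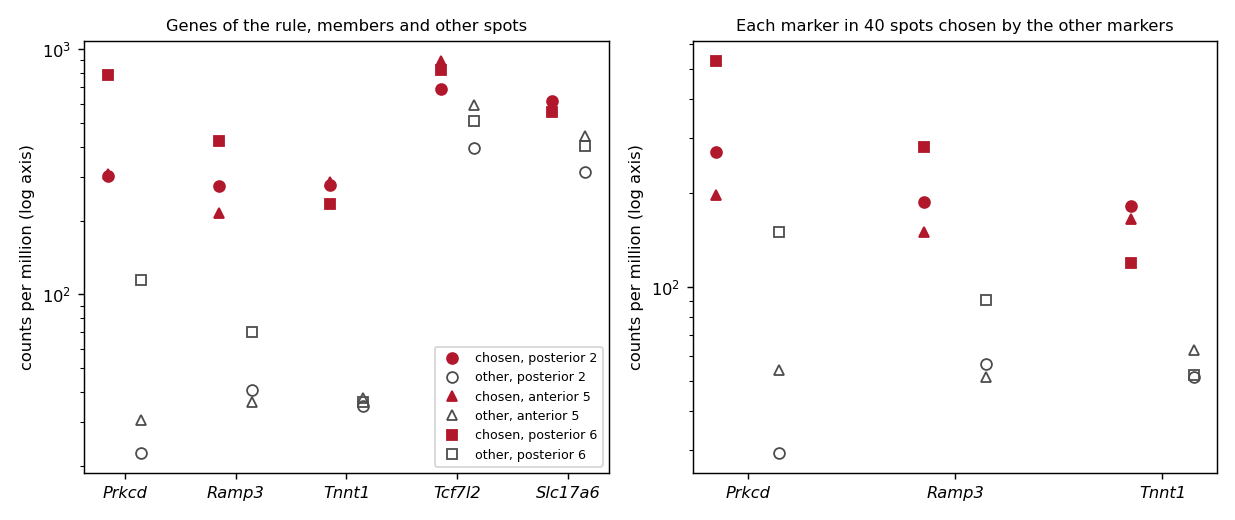
Left: level of the genes of the rule (CPM, log axis) in members (filled) and in the other passing spots (open) of each section. Right: each marker in 40 spots per section chosen by the other markers (filled) and in the rest (open). In the right panel Tnnt1 lies at 119 to 182 CPM in the chosen spots, above 51.5 to 62.8 in the rest.

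Against the other 647 spots, 318 of 8511 genes were higher in members (3.74%) and 294 were lower (3.45%) at an adjusted p under 0.05, leaving out the genes of the rule. The genes that rose included transcription factors, receptors and channels of thalamic relay neurons, and those that fell included genes of forebrain, GABA and choroid plexus cells. DESeq2, run on 17217 genes, called 129 (86 higher), and the fit without the section as a block called 148 of 8511 (75 higher). The count was 335 of 8210 genes without posterior section 2 and 407 of 8665 without posterior section 6. Without a filter on low counts, 248 of 17217 genes were higher and 371 lower. The median log2 difference over all genes tested was -0.0023.

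Of 27 thalamic transcription factors tested, 13 rose, 1 fell and 13 did not pass, with a median log2 difference of 0.51. Rora, the nuclear receptor ROR alpha, stood at 275, 365 and 490.2 CPM in members against 123, 216 and 202 in the other spots. Every member sum lay above every other sum, and Rora rose by 1.12 ± 0.12 (log2, SE, edgeR adjusted p = 5.08e-12). Shox2, a homeobox factor of thalamic neurons, stood at 292, 320.4 and 366 CPM against 101, 215 and 155 (log2 difference 1.19 ± 0.13, edgeR adjusted p = 1.93e-11). Lef1, the partner of beta-catenin in Wnt signalling, stood at 70.5, 55.2 and 89.5 CPM against 23.3, 31.7 and 37.3 (log2 difference 1.32 ± 0.25, edgeR adjusted p = 6.45e-05). Prox1, a homeobox factor also known from the dentate gyrus, was even across sections at 106, 116 and 113 CPM against 44.9, 58.8 and 50.9. Gbx2, Zic1, Zmat4, Mef2a, Rreb1, Foxp1, Foxp2, Hlf and Zfhx3 completed the factors that rose. Meis2, a homeobox factor of GABA neurons, was the factor that fell, from 38.8 to 44.9 CPM in the other spots to between 0 and 16.6 in members.

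The largest rises by log2 difference included genes of low level. Fam19a4, which encodes a secreted chemokine-like protein, stood at 17.6, 22.1 and 31.1 CPM in members against 5.62, 4.70 and 8.66 in the other spots (log2 difference 1.83 ± 0.51, edgeR adjusted p = 0.011), and Shisa6, an AMPA receptor auxiliary protein, had a log2 difference of 1.77. Mrvi1, Endou, Raver2, Aatf, Vash2 and Cacna2d4 also stood above Vav3 in this order. None of these 8 genes passed with DESeq2, which gave no adjusted p for 6 of them. Plekhg1, a guanine nucleotide exchange factor, stood at 189, 188 and 276 CPM in members against 44.5, 84.7 and 87.1 in the other spots, a 3.28-fold rise without overlap (log2 difference 1.71 ± 0.16, edgeR adjusted p = 6.37e-14). Rgs16, which speeds the shut-off of G proteins, stood at 164, 232 and 195 CPM against 46.2, 77.6 and 94.7 (2.78-fold, edgeR adjusted p = 6.59e-11). Vav3, another exchange factor, stood at 123, 60.8 and 117 CPM against 29.4, 38.8 and 49.8 (2.85-fold, edgeR adjusted p = 2.82e-07). The smallest rise of Vav3 was in the anterior section. Rassf3, a Ras-association protein, stood at 57.9, 105 and 109 CPM against 27.6, 37.6 and 39.5.

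Among 18 other genes of the protein kinase C family and the Gq pathway, 4 rose and 3 fell, with a median log2 difference of 0.05. Plcb4, the phospholipase C beta of thalamus and cerebellum, stood at 212, 387 and 385 CPM against 130.02, 170.5 and 198 (log2 difference 0.94 ± 0.12, edgeR adjusted p = 1.05e-08). The isozymes of the kinase went different ways. Prkch rose by 1.23 on the log2 scale, and Prkca fell by 1.26, from 47.0 to 67.8 CPM in the other spots to between 16.6 and 27.7 in members. Plcb1, the isoform abundant in cortex and hippocampus, fell by 0.91. Nrgn, a calmodulin-binding substrate of the kinase in forebrain neurons, stood at 149, 93.9 and 93.4 CPM in members against 721, 573 and 605.

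Partners of the other markers were mostly too low to test. Of the calcitonin peptides, receptors and Ramps, 3 could be tested, and Calca, which encodes calcitonin and CGRP, rose from 17.7, 24.7 and 19.5 CPM to 47.9, 55.2 and 31.1 (edgeR adjusted p = 0.0094, DESeq2 adjusted p = 0.38). Calcr, Adm2 and Iapp had no count in members. Ramp1 did not pass, at 98.2, 33.1 and 54.5 CPM against 118, 99.9 and 90.9. Of the troponins and muscle-type genes, Tnnt2, Tnnt3, Tnnc2, Actn2 and Myh7 had no count in members, while Synpo2, an actin-binding protein of the synaptopodin family, rose to 189, 144 and 218 CPM from 55.7, 74.1 and 109.

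Of 23 voltage-gated potassium channel genes, 6 rose and 2 fell (median log2 difference 0.19). Kcna2, the Kv1.2 subunit of axons, stood at 249, 354 and 401 CPM against 142, 202 and 227 and rose by nearly the same amount in each section. Kcnc2, the Kv3.2 subunit that allows fast spiking, stood at 335, 254 and 284 CPM against 152, 169 and 186. Cacna1g, the T-type channel of thalamic bursts, stood at 161, 238 and 195 CPM against 72.6, 107 and 115 (log2 difference 1.02 ± 0.16, edgeR adjusted p = 5.97e-07). Of 11 burst and pacemaker channel genes, Cacna1g and Hcn2 rose and 1 fell. Cacng4, an AMPA receptor auxiliary protein, stood at 106, 215 and 206 CPM against 37.6, 113 and 109, and the ranges overlapped across sections although each section rose.

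Of 28 synaptic organizers and adhesion genes, 8 rose and 1 fell (median log2 difference 0.29). Cbln1, the cerebellin that bridges neurexins and GluD receptors, stood at 292, 221 and 284 CPM against 111, 135 and 102 (log2 difference 1.28 ± 0.14, edgeR adjusted p = 1.65e-11). Ntng1, the netrin-G1 of thalamocortical axons, stood at 403, 419.8 and 459 CPM against 187, 219 and 231. Of 11 acetylcholine, amine and opioid receptor genes tested, Chrna4, Htr2c, Adra1b and Hrh3 rose, and Chrm1 and Cnr1 fell. Cnr1, the cannabinoid receptor CB1, stood at 30.2, 16.6 and 3.89 CPM in members against 94.2, 65.8 and 59.0. Metabotropic glutamate receptors rose in 3 of 5 cases, Grm2 and Grm4 among them, and GABA-A receptors in 3 of 11, Gabra4 and Gabrd among them. Ionotropic glutamate receptors rose in 2 of 13 cases (Grin2b and Grin2c), and Gria2 fell.

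**Figure D2:**
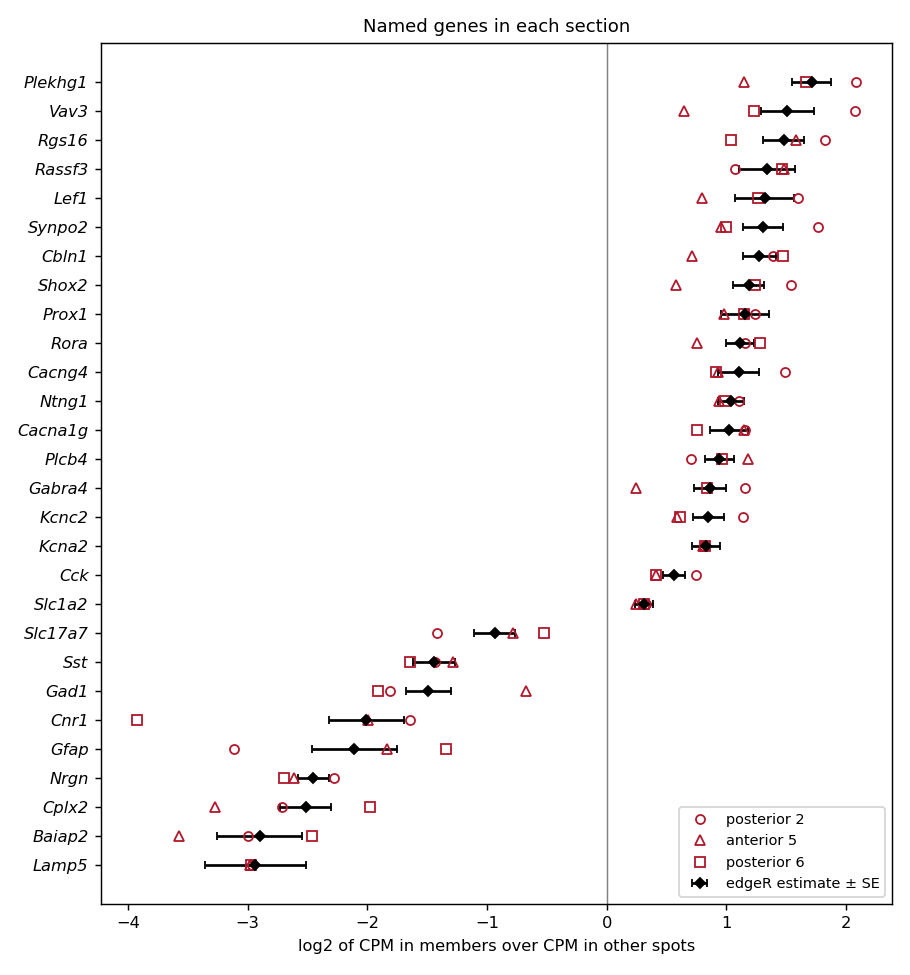
Log2 ratio of CPM in members over CPM in the other passing spots for 28 of the named genes, with each section as an open symbol and the edgeR estimate ± SE as a diamond. Plekhg1 lies furthest right at 1.71, and every section of each gene lies on the same side of 0.

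Genes of other cell types marked the comparison spots more than the members. Of 9 tested markers of reticular and other GABA neurons, 7 were lower in members, and the list's summed level was 657, 613 and 490.2 CPM in members against 1327, 1138 and 919.6. Gad1, the enzyme that makes GABA, stood at 70.5, 122 and 38.9 CPM against 248, 194 and 146. Cplx2, a complexin of forebrain synapses, stood at 32.7, 22.1 and 54.5 CPM against 215, 214 and 215 (log2 difference -2.52 ± 0.21, edgeR adjusted p = 2.05e-16). Lamp5 and Baiap2, both known from cortex and striatum, were 7.64-fold and 7.46-fold lower. Of 9 tested markers of cortical and hippocampal glutamate neurons, 4 fell, Lamp5 among them, 4 did not pass and Prox1 rose. That list summed to 604, 663 and 619 CPM in members against 816, 700 and 775. The choroid plexus list summed to between 138 and 1086 CPM in members and between 3598 and 5418 in the other spots, mostly from Ttr, whose call is lost when the spread is estimated robustly (adjusted p = 0.25). The meningeal list summed to between 486 and 647 CPM in members and between 882 and 3822 in the other spots, mostly from Ptgds, which stood at 3459 CPM in the other spots of anterior section 5 and at 827 and 766 in those of posterior sections 2 and 6. The Ptgds call is lost with the robust spread (edgeR adjusted p = 0.59), with DESeq2 (adjusted p = 0.88) and against the matched spots described next (edgeR adjusted p = 0.998). The part of these cell types in the differences of the other genes was not tested in this comparison.

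Glia did not separate the groups in the same way. None of 10 oligodendrocyte markers and none of 13 mitochondrially encoded genes passed at an adjusted p under 0.05 by edgeR or DESeq2, with 1 and 2 genes at an unadjusted p under 0.05 by edgeR. Of 8 astrocyte markers, Slc1a2 rose by 0.31 on the log2 scale and Gfap fell by 2.11. Of 44 nuclear genes of oxidative phosphorylation, 7 fell and none rose, and DESeq2 called none of the 44.

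Some of the calls above rest on the choice of test. DESeq2 called 6 thalamic transcription factors where edgeR called 14, with Lef1, Gbx2, Foxp1, Foxp2, Hlf, Zfhx3, Rreb1 and Meis2 not passing. It called 2 potassium channel genes where edgeR called 8, 4 adhesion genes where edgeR called 9, 3 acetylcholine, amine and opioid receptor genes where edgeR called 6, and 5 genes of the protein kinase C and Gq list where edgeR called 7. It called 1 metabotropic glutamate receptor and 1 GABA-A receptor where edgeR called 3 of each, and none of the ionotropic glutamate receptors, of which edgeR called 3. Among the genes named above, Prkca, Plcb1, Hcn2, Htr2c, Adra1b, Grm2, Grm4, Gabrd, Grin2b, Grin2c, Gria2 and Slc1a2 did not pass with it. Kcna2 and Cacng4 did not pass without the section as a block (edgeR adjusted p = 0.055 and 0.21), and the Cbln1 call was lost when members were chosen without Tnnt1. Rora, Shox2, Plekhg1, Rgs16, Vav3, Ntng1, Cplx2 and Nrgn passed with DESeq2, without the block and with each section left out in turn.

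Because the other spots included many with a single count of the filter genes, the same members were compared with the 331 other spots that held at least 2 counts of both Tcf7l2 and Slc17a6. Members were not filtered again and included spots with a single count of either gene. The name matched spots, used below, therefore describes a filter on the other spots only. This comparison was added after the data were seen. It called 68 of 6792 genes higher (1.00%) and 62 lower (0.913%), and 118 of these 130 genes were also called against all other spots. Plekhg1 remained higher at a log2 difference of 1.11 (edgeR adjusted p = 2.61e-05), with 69.5, 122 and 132 CPM in the matched spots. Rora rose by 0.66, Kcna2 by 0.70, Cbln1 by 0.72, Cacng4 by 0.78, Rgs16 by 0.77, Vav3 by 1.05 and Synpo2 by 0.61, and all 7 passed. Cplx2 stayed lower by this test, at 78.5, 99.3 and 88.6 CPM in the matched spots, and so did Cnr1.

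Other differences did not pass against the matched spots. Shox2 had a log2 difference of 0.42 (edgeR adjusted p = 0.071), Lef1 of 0.65 (0.19), Ntng1 of 0.33 (0.075) and Gbx2 of 0.16 (0.82). Nrgn stood at 158, 135 and 135 CPM in the matched spots, close to the members (edgeR adjusted p = 0.49), and Gad1 had a log2 difference of -0.50 (edgeR adjusted p = 0.35). Of the thalamic transcription factors, 3 of 24 passed, all higher: Rora, Zmat4 and Mef2c. None of 5 tested markers of GABA neurons passed in edgeR, although 4 had an unadjusted p under 0.05. Oligodendrocyte markers rose in 2 of 10 cases, 8 having an unadjusted p under 0.05, and Calb2 fell by 1.00 on the log2 scale.

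**Figure D3:**
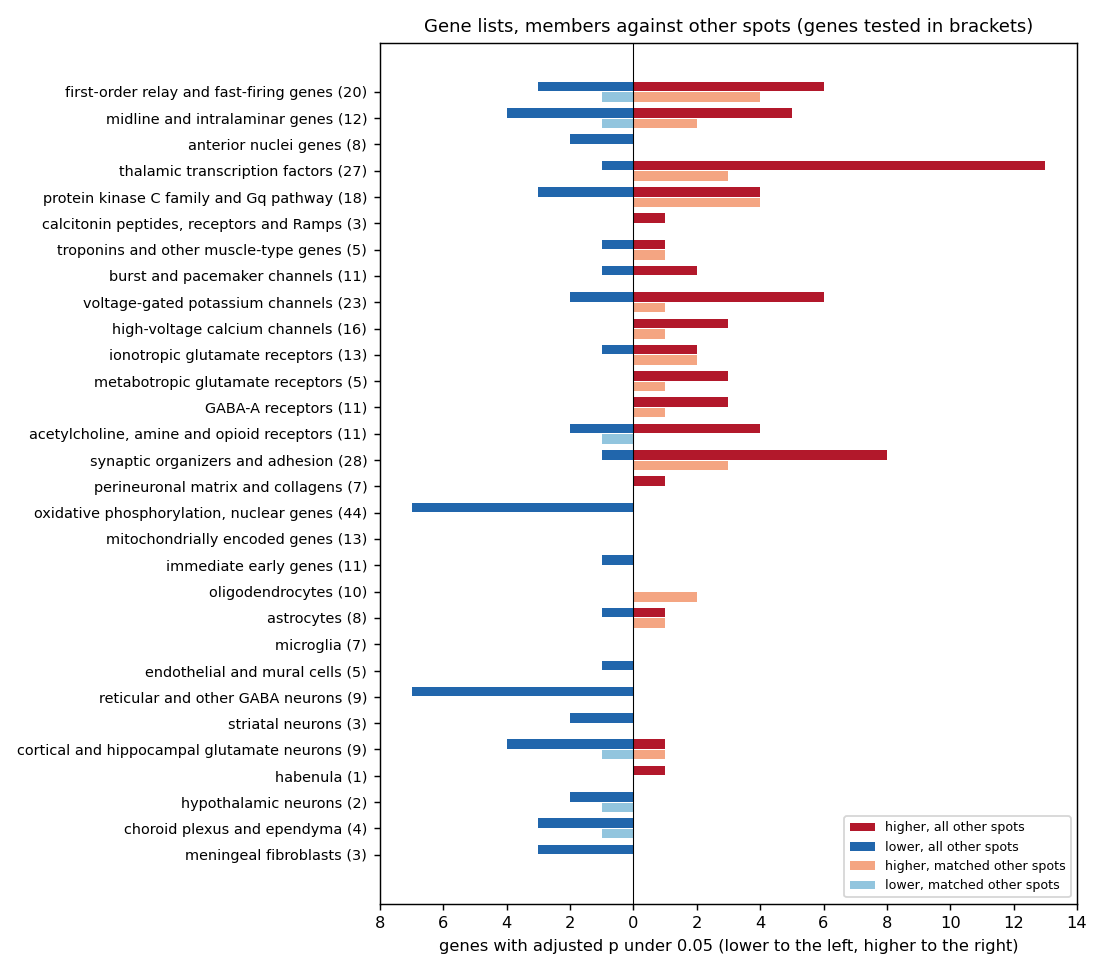
Number of genes in each of 30 lists that were higher (right) or lower (left) in members at an adjusted p under 0.05, against all other passing spots (dark) and against other spots with at least 2 counts of Tcf7l2 and Slc17a6 (light). For the 27 thalamic transcription factors tested, 13 rose against all other spots and 3 against the matched spots, and the 7 lower markers of GABA neurons have no light bar.

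Along the order of the marker score, levels of several genes went on changing beyond the members. In posterior section 6, Rora stood at 490.2 CPM in ranks 1 to 40, 428 in ranks 41 to 80, 261 in ranks 81 to 120 and 219 in ranks 121 to 160. In posterior section 2 the same steps gave 275, 224, 145 and 151 CPM. Plekhg1 in posterior section 2 went from 189 to 88.6, 63.1 and 38.9 CPM. Calb2, the calcium buffer calretinin of midline thalamus, went the other way in posterior section 6, from 198 CPM in members to 436, 623 and 694. In anterior section 5, Rora was 365 CPM in members and 358 in the next 40 spots, so the border fell within a plateau there. These steps are a description, since the score orders the same spots.

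**Figure D4:**
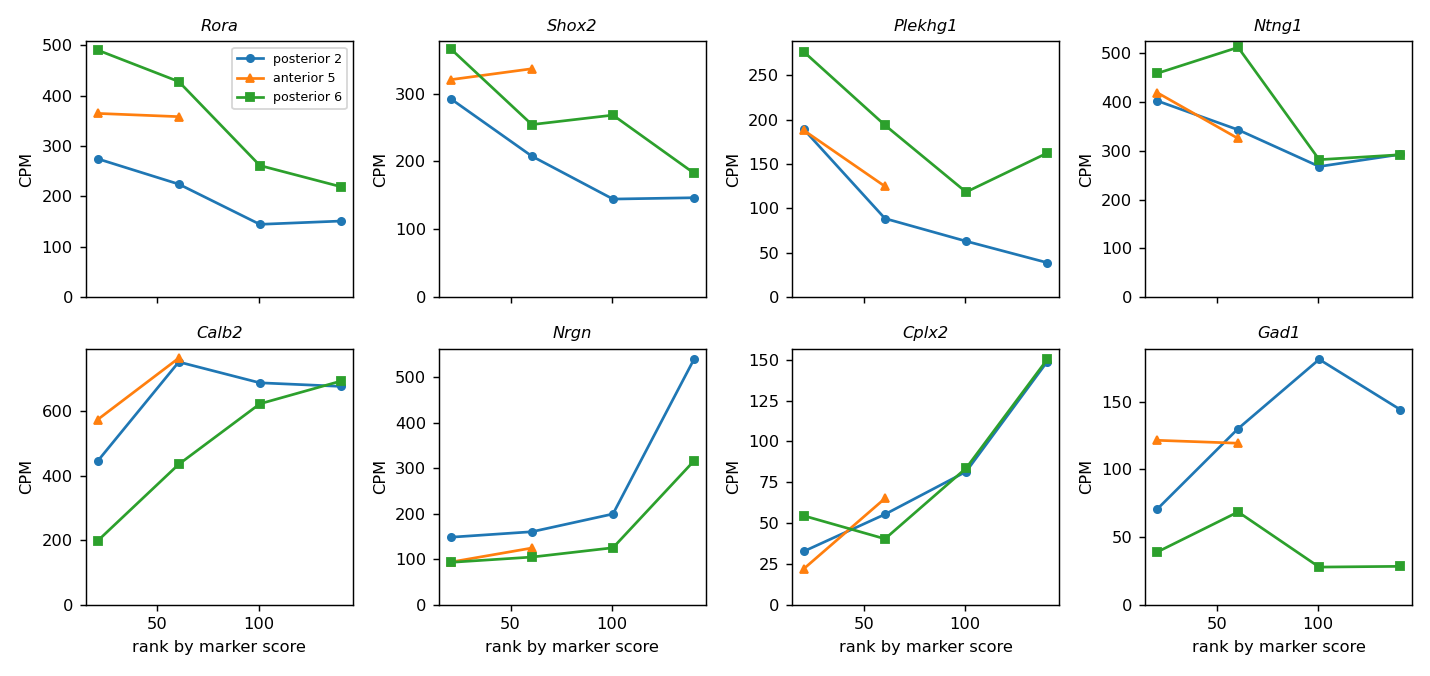
Level of 8 genes (CPM) in successive groups of 40 spots by rank of the marker score in each section, for the steps in which every spot had a score above 0. Rora declines from 490.2 to 219 CPM in posterior section 6, while Calb2 climbs from 198 to 694 CPM.

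The share of spots with a count was compared at equal depth for 16 genes, and it did not always follow the level. After thinning to 2500 counts, which left out 3 of the other spots and no member, Plekhg1 was found in 40% ± 10.9 of members (SD, n = 3 sections) and in 16.0% ± 6.72 of the other spots. Without thinning the shares were 65.0% and 31.6%. Rgs16 was found in 38.3% ± 1.44 of members and 17.8% ± 4.78 of the other spots, and Cplx2 in 8.33% ± 3.82 and 29.0% ± 3.58. Nrgn, 5.47-fold lower in members by level, was found in 28.3% ± 10.1 of members and 36.9% ± 4.38 of the other spots, and the shares were 40% and 39.5% in posterior section 2. Ttr was found in 60% ± 43.4 of members and 57.6% ± 17.8 of the other spots, and Slc17a7 in 19.2% ± 7.64 and 19.9% ± 5.08.

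Over 1561 genes with at least 100 counts in members, the median ratio of the variance between members to that of random counting was 1.11, and 41 genes exceeded 2. Gm42418, a predicted gene, had the highest ratio at 43.9. Hbb-bs, a hemoglobin, also reached 43.9 and was found in 31, 11 and 23 of the 40 members of posterior section 2, anterior section 5 and posterior section 6. Hba-a1 and Hba-a2, the mitochondrial mt-Co1, the mitochondrial leucyl-tRNA synthetase gene Lars2, the myelin gene Mbp and Ttr had ratios of 16.9, 14.8, 9.56, 6.22, 5.54 and 5.24. Among neuronal genes, Calb2 had a ratio of 3.78, with up to 28 counts in a member and none in 11 members of posterior section 2, 15 of anterior section 5 and 23 of posterior section 6. Cbln1 had 2.36 and Prkcd 2.16, while Tnnt1 had 1.38, Rora 1.18 and Ramp3 0.825. Prkcd, Tnnt1 and Ramp3 chose the members, so their ratios cannot be set beside those of the other genes.

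The members were then set beside 3 other kinds of spots. The 108 spots chosen by Nexn and Col27a1, the 108 chosen by Calb2 and Foxp2, and 121 spots with a count of C1ql2 that passed the other filters were fitted together with the members. The 4 genes that chose the first and second kind, and the genes of the rule, are not counted in these contrasts.

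Spots chosen by Nexn and Col27a1 were the most like the members by number of calls, with 21 of 6216 genes higher in members (0.338%) and 18 lower (0.290%). DESeq2 called 4 genes, and no gene passed without the block (373 genes had an unadjusted p under 0.05). Leaving out posterior section 2 gave 8 genes and leaving out anterior section 5 gave 11. Htr2c, the serotonin receptor 5-HT2C, stood at 95.7, 122 and 77.8 CPM in members against 32.0, 5.95 and 12.4 (edgeR adjusted p = 0.0035). Gbx2 stood at 111, 110.5 and 101 CPM against 34.9, 29.8 and 37.1, and Tenm1, a teneurin adhesion protein, at 131, 144 and 128 CPM against 34.9, 59.5 and 65.9. Gbx2 and Tenm1 passed with edgeR (adjusted p = 0.0145 and 0.012) but not with DESeq2 (adjusted p = 0.16 and 0.19). Neither passed with posterior section 2 or anterior section 5 left out. Htr2c passed with DESeq2 (adjusted p = 0.031) but not with anterior section 5 left out (edgeR adjusted p = 0.0599). Tac1, the substance P precursor, was lower at 5.04, 5.52 and 7.78 CPM against 84.3, 17.9 and 37.1. The Tac1 call was lost with posterior section 2 left out (edgeR adjusted p = 0.58), and DESeq2 gave no adjusted p for it. Calb2 and Foxp2, which served to leave spots out of this kind, stood at 198 to 574 and at 55.2 to 83.1 CPM in members, and at 119 to 198 and at 5.95 to 20.4 CPM in this kind.

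Against spots chosen by Calb2 and Foxp2, 174 of 6216 genes were higher in members (2.80%) and 115 lower (1.85%). DESeq2 called 114, the fit without the block 94, and the fit without posterior section 6 called 95. Tcf7l2 and Slc17a6 were at like levels here, with 772, 794 and 850 CPM of Tcf7l2 in these spots. Plekhg1 stood at 39.6, 66.6 and 42.3 CPM in them, which made it 2.20 higher on the log2 scale in members (edgeR adjusted p = 4.18e-07). Inadl, a PDZ scaffold of cell polarity, stood at 93.2, 82.9 and 163 CPM in members against 19.8, 35.9 and 17.6. Rab3b, a synaptic vesicle GTPase, was lower at 20.1, 33.1 and 11.7 CPM against 133, 143 and 84.7 (edgeR adjusted p = 1.14e-06). Oxt was also lower, but at 0, 55.2 and 62.2 CPM against 25.4, 164 and 2357 the groups overlapped and posterior section 6 held most of the counts.

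Against C1ql2-positive spots, 160 of 6220 genes were higher in members (2.57%) and 151 lower (2.43%). DESeq2 called 97, the fit without the block 94, and the fits without anterior section 5 and posterior section 6 called 131 and 109. Tcf7l2 stood at 613, 459 and 357 CPM in the C1ql2-positive spots against 685, 895 and 825 in members. Slc17a6 stood at 493, 459 and 354 CPM against 615, 574 and 556. The part of this in the differences of other genes was not tested. Foxp1, a forkhead factor, stood at 123, 182 and 140.1 CPM in members against 37.8, 28.0 and 25.8 (edgeR adjusted p = 2.88e-06). Cbln1 stood at 78.8, 50.4 and 56.8 CPM in the C1ql2-positive spots (edgeR adjusted p = 7.04e-09) and Cacng4 at 39.4, 33.6 and 46.5. Calca was at 47.9, 55.2 and 31.1 CPM in members against 7.88, 0 and 2.58. Ap1s2, a vesicle adaptor subunit, was lower in members at 20.1, 16.6 and 27.2 CPM against 96.1, 151 and 155 (edgeR adjusted p = 2.37e-06).

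**Figure D5:**
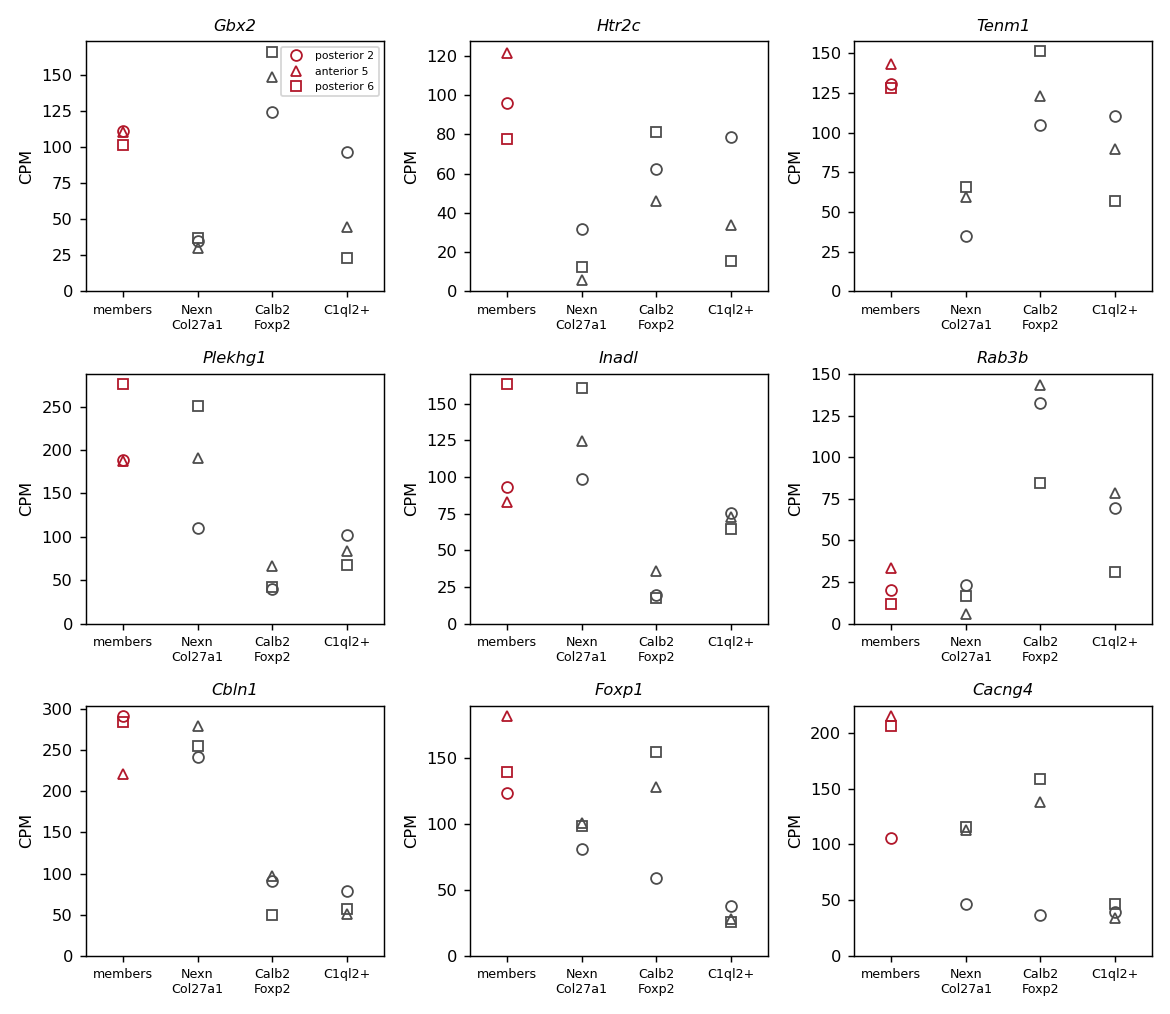
Level of 9 named genes (CPM) in members and in 3 other kinds of spots, each symbol a section. Gbx2 separates members from the spots chosen by Nexn and Col27a1, Rab3b from those chosen by Calb2 and Foxp2, and Cbln1 and Foxp1 from the C1ql2-positive spots.

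With 1 anterior section, members there could be described against the posterior sections but not tested. Of 3390 genes with at least 50 counts in members, 10 (0.295%) differed at least 2-fold from both posterior sections with exact Poisson 95% intervals that did not overlap, and these intervals cover counting error only. Stox2, a winged-helix protein, stood at 193 CPM (interval 135 to 269) in anterior section 5 against 78.1 and 62.2. Zbtb20, a transcriptional repressor, stood at 209.9 CPM against 73.0 and 85.6. The other 8 were lower: the hemoglobins Hbb-bs, Hba-a1 and Hba-a2, the choroid plexus gene Ttr, the myelin tight junction gene Cldn11, and Tmem246, Fam134a and Sv2b. Sv2b, a synaptic vesicle protein, stood at 122 CPM against 285 and 257, and the other spots had 126 CPM against 189.6 and 183, so the section differed in the same direction outside the members. The other spots also had more Stox2 (110.5 CPM against 82.1 and 64.9) and Zbtb20 (170.5 against 115 and 106) in the anterior section, while Tmem246 was near level there (77.6 against 82.1 and 79.5). The anterior section was also the shallowest.

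Single cells of the anterior thalamic nuclei were available from 3 animals, without a link between wells and labelled samples, and are given as a description. The member spots were not placed in named nuclei here. Of 904 cells with at least 1000 genes, 729 passed the same gene filter, and Prkcd was found in 332 of them, Ramp3 in 248 and Tnnt1 in 365. All 3 markers were found in 104 cells and none in 172. Taking the 40 cells per animal with the highest score, 107 of the 313 genes higher in member spots were higher in the chosen cells of all 3 animals (34.2%, against 13.6% of 8356 genes). Of 292 genes lower in member spots, 71 were lower in all 3 animals (24.3%, against 15.2%). The 40 cells came from 82, 269 and 378 passing cells of animals 1, 2 and 3. In animal 1, 15 passing cells held 2 markers and 7 held all 3, so some of its chosen cells held a single marker. Rgs16 stood at 189, 199 and 213 CPM in chosen cells against 137, 129 and 165 in the rest. Shox2 did not follow, at 945, 445 and 645 CPM against 942, 797 and 731, nor did Plekhg1, at 423, 356 and 266 CPM against 334, 352 and 317. Gad1 and Nrgn were below 4 CPM in the cells of every animal, in contrast to the spots.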

How the data were processed

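Raw counts for every gene in every spot were deposited by the authors, together with a table that assigns spots to sections (other unit), gives their total count and says how many genes were detected. The submitters' processing notes name Space Ranger, Seurat and the builds NCBIM37 and mm10, with roles not given in the sources used here. For single cells, the authors deposited raw counts by well and a table with an animal number (other unit). The members, gene lists and comparisons were chosen with earlier results of these data known.

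Counts were summed per section over members and over the comparison spots and tested with edgeR 4.0.16 (TMM, filterByExpr, quasi-likelihood F test, section as a block, Benjamini-Hochberg adjustment over all genes tested, threshold 0.05). A standard error is the log2 difference divided by the square root of F. The pairing comes from the section: both sums of a section share its library, and their deviations correlated at 0.31, 0.14 and 0.12 in posterior section 2, anterior section 5 and posterior section 6. The main fit had 2 residual degrees of freedom and borrowed 78.1 from the spread over genes. Named genes were the 15 largest changes each way (8 in pairwise contrasts) that passed, with a log2 difference of 0.5 or more in size, a level of 20 CPM or more in the higher group and 1 direction in all 3 sections, with up to 3 genes per list by smallest p. On simulated counts for this comparison (8590 genes), 60 of 100 genes changed 2-fold and 95 of 100 changed 4-fold were recovered, with 5 false calls. The changed genes held at least 100 counts over all sums, and every gene was given the same spread beyond counting. The simulation therefore does not describe named genes with fewer counts or with uneven spread. The alternatives used DESeq2 1.42.0, other filters, other choices of spots and the left-out sections.

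Of 1216 single-cell wells with an animal number, 9 whose recorded source belonged to another animal were left out. A few genes are not reported here.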

Additional observations from a re-analysis of the deposited data

Results flagged for a closer look

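Among the genes picked by the naming rule for this comparison, 7 had a CPM ratio of members over other spots that reversed between sections. Their ratio went one way in the anterior section and the opposite way in both posterior sections. Genes outside that set, Scn1a among them, also had this pattern, which was not counted over all genes. The difference was not tested, and several ratios were close to 0 on the log2 scale. Nr4a1 was at 0.27 in the anterior section and at -1.32 and -1.17 in posterior sections 2 and 6, and Arc at 0.12 against -1.06 and -1.19, both immediate early genes. Grm2 was at -0.0089 against 0.90 and 0.93. Cldn11 was at -0.91 against 0.41 and 0.28, Gjb6 at -0.58 against 0.88 and 0.31, Pde10a at -0.55 against 0.39 and 0.28, and mt-Atp8 at -0.027 against 0.38 and 0.088. Of these, Grm2 passed the test over all sections, and its rise rests on the posterior sections.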

How the results depend on the processing

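The count of 612 genes that differed between members and other spots became 168 with 20 spots per section, 129 with DESeq2, 68 with at least 3 counts of Tcf7l2 and Slc17a6, 295 without Tnnt1 in the choice, 130 against the matched spots and 17 with spots thinned to 1000 counts. Without the replicate block it was 148. Leaving out 1 section gave between 335 and 586 genes. Against spots chosen by Nexn and Col27a1, 39 genes became 4 with DESeq2, 83 without a filter on low counts, 0 without the replicate block, and 8 to 56 when 1 section was left out. Against spots chosen by Calb2 and Foxp2, 289 genes became 114 with DESeq2, 94 without the replicate block, and 95 to 233 with 1 section left out. Against C1ql2-positive spots, 311 genes became 97 with DESeq2, 94 without the replicate block, and 109 to 358 with 1 section left out. Slc17a7 was lower in members but had a log2 difference of 0.073 with at least 3 counts of the filter genes and 0.52 against the matched spots, and Ptgds had 0.18 with at least 3 counts. The cause of these shifts was not tested. Thinning to 1000 counts left 1911 genes to test. DESeq2 and the fits without a filter on low counts covered more genes than the main fits. The matched comparison and the robust spread were chosen after seeing the data. The rises of Prkcd, Ramp3 and Tnnt1 in spots chosen by the other markers passed under every alternative run for them. Those were DESeq2, no filter on low counts, no replicate block, the robust spread and each section left out. Thinning, stricter filters, the matched spots and other numbers of spots were not run for these rises.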
